A study of Mus musculus with 4 samples.

Results

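Sh2d1a, Traf3ip3, Hcls1, Gpr152 and Ccdc24 are protein-coding genes with RNA that was largely missing from the retina of mice carrying the mutation Q344X. These 5 genes, of 52636 in the deposited table, were picked by name because they were among the coding genes lowest in Q344X relative to WT. Their difference between the genotypes therefore chose them, and it is given as a description with no test. Poly-A RNA from the retinas of mice aged 3 weeks was sequenced in 4 libraries, 2 labelled Q344X and 2 labelled WT. Q344X is a mutation known from dominant retinitis pigmentosa, in which photoreceptors are lost; the labels do not give the number of copies carried, how the allele was made, the strain or the sex. Each group began with 3 animals, of which 2 were kept after exclusions for RNA quality and outliers, per the design text; the protocol for extraction counts 3 mice for Q344X and 2 for WT.

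Sh2d1a, Hcls1 and Traf3ip3 are known from blood cells. Sh2d1a encodes SAP, a small adaptor made almost wholly of an SH2 domain, which binds the tails of SLAM-family receptors on T and NK cells and brings the kinase Fyn to them; its loss in people causes an X-linked lymphoproliferative disease. Hcls1 encodes HS1, the blood-cell relative of cortactin, an actin-binding protein that is phosphorylated by Src-family kinases and Syk and works with the actin-nucleating Arp2/3 complex. Traf3ip3 encodes a coiled-coil membrane protein that binds the signalling adaptor TRAF3 and acts in lymphocyte development. Gpr152 encodes a G protein-coupled receptor whose ligand is not known, and Ccdc24 a coiled-coil protein.

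The libraries held 18452679 to 19706573 reads in genes, and values are normalized counts, read counts divided by a size factor per library, so that 1 read was worth 0.9598 to 1.04. For the label retina, all 22 rod and all 13 cone markers listed were above 0 in every library. The Y-linked genes Ddx3y, Eif2s3y, Kdm5d and Uty together had 0 and 0 in Q344X replicates 1 and 2, and 5028 and 2.01 in WT replicates 1 and 2. The 19 lens crystallin genes summed to 332037 and 10844 in Q344X replicates 1 and 2, and to 291101 and 354598 in WT replicates 1 and 2. Xist, expressed from an inactive X chromosome, had 55578 and 26839 in Q344X replicates 1 and 2, and 20823 and 37957 in WT replicates 1 and 2. The crystallin values set Q344X replicate 2 apart, and the Y-linked values WT replicate 1. The part of sex or of lens tissue in the members' values was not tested. No label ties a library to an animal, so the p-values cover only how far these libraries spread. In bulk tissue, fewer cells of a type and less RNA per cell cannot be told apart.

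Sh2d1a (ENSMUSG00000005696, chromosome X, 42502453 to 42529330, plus strand, GRCm38) had the lowest mean in Q344X relative to WT of the 5, but Traf3ip3 was lower in Q344X replicate 1 (3.27% of the WT mean, against 3.72% for Sh2d1a). It had 9.90 and 6.72 normalized counts in Q344X replicates 1 and 2, against 258 and 275 in WT replicates 1 and 2. The Q344X libraries rest on 10 and 7 reads and the WT libraries on 248 and 274. What remained was 3.12% of the WT mean, 32.1-fold lower, and the counting error of the pooled reads alone allows 1.80% to 5.03% (exact 95% binomial interval). The WT libraries had similar values, and the groups lay far apart.

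Traf3ip3 (ENSMUSG00000037318, chromosome 1, 193175453 to 193201703, minus strand) had 18.8 and 32.6 normalized counts in Q344X replicates 1 and 2, against 544 and 608 in the WT libraries. This left 4.47% of the WT mean. It was the member whose Q344X libraries differed most, by 0.76 on the log2 scale (replicate 2 minus replicate 1, from 34 and 19 reads), where the median absolute difference of all tested genes was 0.35. Its log2 difference, Q344X minus WT, of log2(value + 1) was -4.48, and that of Sh2d1a was -4.86; without Q344X replicate 2 the order turned, with -4.86 for Traf3ip3 and -4.62 for Sh2d1a.

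Hcls1 (ENSMUSG00000022831, chromosome 16, 36934983 to 36963212, plus strand) kept more of its RNA. It had 119 and 133 normalized counts in Q344X replicates 1 and 2, against 1293 and 1509 in WT replicates 1 and 2. Its mean was 126 ± 10.3 in Q344X and 1401 ± 153 in WT (SD, n = 2 each), so that 9.00% remained. The log2 difference was -3.46.

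Gpr152 (ENSMUSG00000044724, chromosome 19, 4139787 to 4145740, plus strand) had 108 and 121 normalized counts in the Q344X libraries, against 1729 and 1925 in the WT libraries. It kept 6.26% of the WT mean, with a log2 difference of -3.99. Ccdc24 (ENSMUSG00000078588, chromosome 4, 117866524 to 117872557, minus strand) had 223 and 217 in the Q344X libraries, against 1759 and 1862 in the WT libraries. It kept 12.1%, an 8.23-fold lower mean and a log2 difference of -3.04, so that "nearly silenced" describes Sh2d1a and Traf3ip3 better than Ccdc24, which was still read 225 and 226 times. The groups did not overlap in any of the 5, which were chosen by this difference. Both Q344X libraries were below both WT libraries in 31.7% of all tested genes.

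**Figure D1:**
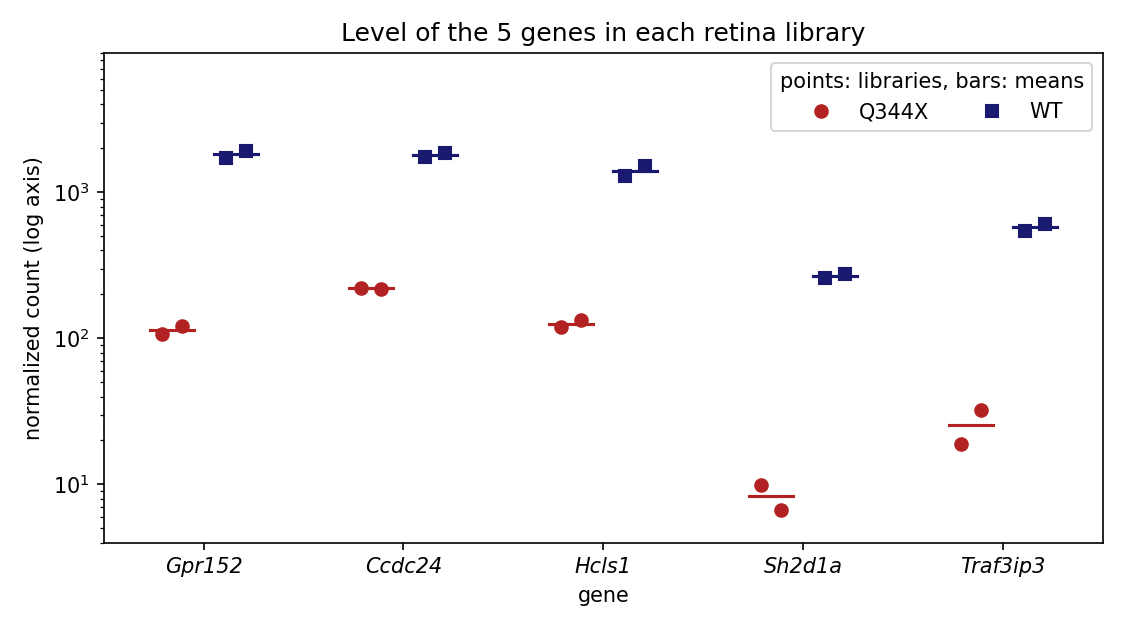
Normalized counts of Gpr152, Ccdc24, Hcls1, Sh2d1a and Traf3ip3 (log axis) in the 2 Q344X libraries (circles, left) and the 2 WT libraries (squares, right), with bars at the group means. Sh2d1a has the lowest points in both groups, and Ccdc24 has the highest Q344X points, at 223 and 217.

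The 5 genes spanned a wide range of abundance. Per kb of annotated exon, the Q344X libraries had 47.0 and 52.8 normalized counts for Hcls1 and 49.6 and 48.3 for Ccdc24, which overlapped, above Gpr152 at 27.4 and 30.7, Traf3ip3 at 3.27 and 5.67 and Sh2d1a at 1.80 and 1.22. The WT libraries had 512 and 598 per kb for Hcls1, 439 and 489 for Gpr152 and 392 and 415 for Ccdc24. Traf3ip3 had 94.5 and 106 per kb in WT, and Sh2d1a 46.8 and 49.9. No 2 neighbours in this order overlapped in WT. Among the 14309 tested protein-coding genes, the WT level per exon length stood at percentile 89.6 for Hcls1, 86.7 for Gpr152, 84.3 for Ccdc24, 45.2 for Traf3ip3 and 29.2 for Sh2d1a.

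All 5 passed the filter of a mean of at least 10 normalized counts, which kept 16833 genes. Of those, 14.6% were called changed in Q344X (limma, adjusted p under 0.05), 9.10% lower and 5.46% higher. In 31.7% both Q344X libraries were below both WT libraries, and in 31.4% above; since the difference chose the members, nothing is read from their place in these shares. Ranked by log2 difference among the tested coding genes, Sh2d1a was at place 10, Traf3ip3 at 17, Gpr152 at 25, Hcls1 at 42 and Ccdc24 at 68. With a mean of at least 50, 43 other coding genes had a log2 difference at least as low as Ccdc24, so the 5 are a choice by name. The median log2 difference of all tested genes was 0.02. 

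Of 22 rod markers, all tested, 8 fell (36.4%, against 9.10% of all tested genes), 1 rose and 13 did not pass, with a median log2 difference of -0.72. Guca1b, a guanylate cyclase activator, averaged 4859 ± 1053 normalized counts in Q344X and 30813 ± 5622 in WT (SD, n = 2 each), or 15.8%, and Gnat1, the rod transducin alpha subunit, kept 20.2%. Of 13 cone markers 6 fell, 0 rose and 7 did not pass, with a median of -0.84; Guca1a, another cyclase activator, is on both lists. Of the other retinal lists, 2 of 10 bipolar and 3 of 9 ganglion cell markers rose and 0 fell (limma). Among amacrine and Müller glia markers, 1 of 10 and 2 of 10 fell and 0 rose. The amacrine marker was Slc6a9, which overlaps Ccdc24. Of horizontal markers 0 of 6, and of endothelial and pericyte markers 0 of 10, passed in either direction. At an unadjusted p under 0.05 (limma), 1 bipolar marker was lower and 4 were higher. For ganglion cells these counts were 0 and 7, for amacrine cells 3 and 2 and for Müller glia 3 and 0. They were 0 and 0 for horizontal cells and 0 and 3 for endothelial cells and pericytes. The rod markers summed to 607624 and 677075 in Q344X and to 1316701 and 1511259 in WT; the part of photoreceptor number in the members' difference was not tested.

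**Figure D2:**
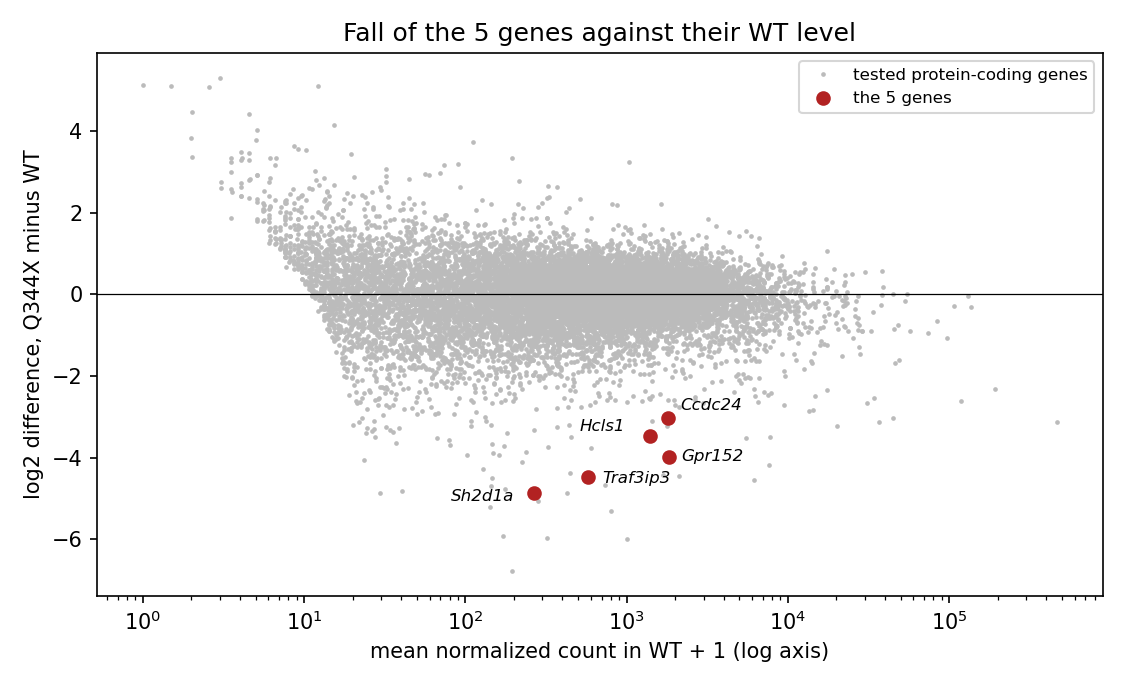
Log2 difference of each tested protein-coding gene, Q344X minus WT, against its mean normalized count in WT plus 1 (log axis); grey points are single genes and red points the 5 members. The members lie between -3.04 for Ccdc24 and -4.86 for Sh2d1a, below most genes of like WT level; the slanted lower left edge of the grey cloud comes from the filter on the mean.

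The sequence before the annotated start is shown for Hcls1 and Traf3ip3, the blood-cell genes with a RefSeq promoter (GRCm38.p6); the window of Ccdc24 lies wholly in annotated exons and is not shown. RefSeq's table held 3 of the 5 members: Hcls1, Traf3ip3 and Ccdc24. The 250 bases before the start were searched on both strands for letters of factors known from photoreceptors (CRX, TAATCC; NRL, TGCTGA; ROR, AGGTCA; MEF2, by its consensus) and from blood cells (PU.1, GAGGAAG; RUNX, TGTGGT). The stretches below are the bases of that window that lie before the gene's annotated exons, which is all 250 bases for Hcls1 (chr16:36934733-36934982, plus strand) and 93 bases for Traf3ip3 (chr1:193201704-193201796, minus strand). They are written 5′ to 3′, with the match to the ROR letters, on the opposite strand, in capitals.
Hcls1: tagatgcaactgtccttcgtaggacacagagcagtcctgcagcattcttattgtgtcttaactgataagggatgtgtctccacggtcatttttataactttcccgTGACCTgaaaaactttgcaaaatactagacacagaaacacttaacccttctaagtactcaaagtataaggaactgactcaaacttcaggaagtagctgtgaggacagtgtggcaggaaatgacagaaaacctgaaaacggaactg
Traf3ip3: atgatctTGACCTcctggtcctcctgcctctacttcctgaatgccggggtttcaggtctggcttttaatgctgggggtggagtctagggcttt
The ROR letters were found once in each of the 3 windows (Ccdc24 included), and they are present in 14.0% of 32851 RefSeq promoter windows of this length. PU.1 letters were found in the Traf3ip3 window, 100 to 106 and 25 to 31 bases before the start, and in 10.6% of all windows. Distances are from the RefSeq start, which for Traf3ip3 and Ccdc24 lies inside the GENCODE gene, so both PU.1 matches lie within the GENCODE gene and not in the stretch printed. CRX letters, which 6.25% of all windows hold, those of NRL (16.1%) and RUNX (14.0%) and the MEF2 consensus (0.508%) were not in these 3 windows, and no match overlapped another. The windows differed in composition, with 41.6% G and C for Hcls1, 55.2% for Traf3ip3 and 60.8% for Ccdc24, against a median of 52.4%. These are matches of letters, and the start used in retina is not measured by these data.

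Most members share genomic sequence with another gene, which matters for how their reads could be assigned. Per GENCODE M21, Hcls1 overlapped no other gene. Gpr152 overlaps Cabp4 on the opposite strand, and 131 of its 3936 exon bases (3.33%) are also exon of Cabp4. Ccdc24 shares 62.3% of its exon bases, with Slc6a9 on the opposite strand and with B4galt2 and Gm17114 on its own strand. The last 1465 exon bases of Sh2d1a (26.6%) are also annotated to Tenm1 on the opposite strand. Traf3ip3 shares 7.30% with A130010J15Rik on the opposite strand and holds the antisense gene Gm15872 in its introns, with 0 shared exon bases. The kit was directional, but whether reads were counted by strand is not stated in the sources used here, so reads in the shared stretches, of Ccdc24 above all, are uncertain.

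Overlapping genes were called lower at Gpr152 (Cabp4), Ccdc24 (Slc6a9) and Traf3ip3 (A130010J15Rik and Gm15872). B4galt2 at Ccdc24 and Tenm1 at Sh2d1a did not pass, which does not show that they were unchanged. The members' rule did not use the overlapping genes, so they were tested. Where reads may have been counted for either gene, these tests are not independent of the members' values. Cabp4, a calcium-binding protein of the photoreceptor synaptic terminal, fell, with 1119.7 and 1564 normalized counts in Q344X and 3769.8 and 4443 in WT (log2 difference -1.63 ± 0.23, SE; adjusted p = 0.0130, limma over all tested genes). It kept 32.7% of its WT mean, and its call was lost with no filter on low values (adjusted p = 0.0544). Slc6a9, the glycine transporter GlyT1, fell to 61.6% of WT (-0.70 ± 0.17, adjusted p = 0.0476, limma), with 2034 and 1803 in Q344X and 3072 and 3160.3 in WT; this call was lost in 5 of 10 alternative settings (adjusted p = 0.0141 to 0.293). B4galt2, a galactosyltransferase, had 947 and 1832 in Q344X and 979.6 and 1252 in WT and did not pass (0.25 ± 0.34, adjusted p = 0.632; 0.73 without Q344X replicate 1, where it passed). Tenm1, a teneurin, had 483 and 222 in Q344X and 689 and 513 in WT and did not pass either (-0.86 ± 0.39, adjusted p = 0.179; -1.42 without Q344X replicate 1, where it passed).

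At Traf3ip3 both overlapping genes fell. A130010J15Rik had 146 and 155 normalized counts in Q344X, against 328 and 362 in WT (-1.19 ± 0.20, adjusted p = 0.0199), a call lost without WT replicate 2 (adjusted p = 0.0902) and with no filter (adjusted p = 0.0572). Gm15872 had 0 and 2 reads in Q344X replicates 1 and 2, and 313 and 223 in WT replicates 1 and 2. Its pooled reads came to 0.356% of WT, with a counting interval of 0.0430% to 1.29% (exact 95% binomial). It fell under limma (adjusted p = 0.00513), but it passed the filter on the mean through its WT values alone. The call was kept with the other pseudocounts, filters and scalings (adjusted p = 0.0358 with no filter, limma). Its fitted change depends on the pseudocount and is not given. Without a known strand setting, reads from Gm15872 and from unspliced RNA of Traf3ip3 cannot be told apart.

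Beyond the overlaps, no tested neighbour of the 5 genes was called lower, where 9.10% of all tested genes were. With 13 neighbours tested, this count cannot be set apart from that share. Of the 20 nearest coding genes, 2 on each side of each member, 13 were tested, 0 fell and Klf17 rose (limma; 2 were lower at an unadjusted p under 0.05), with a median log2 difference of -0.09. Golgb1, which encodes the Golgi protein giantin and lies 1897 bases from Hcls1, had 4221 and 1859 normalized counts in Q344X and 5908 and 3591 in WT, with overlapping groups (-0.72 ± 0.43, adjusted p = 0.290, limma). Without Q344X replicate 1, Golgb1 (-1.31) and Polq (-1.15) were among those called lower, and Pitpnm1 (0.72) was called higher. Coro1b, an actin-binding coronin 2878 bases beyond Gpr152, had 0.07 ± 0.18, and Stag2, a cohesin subunit 225267 bases from Sh2d1a, had -0.43 ± 0.18. Ptprcap, 7863 bases beyond Gpr152, had 3.96 and 5.76 normalized counts in Q344X and 14.6 and 18.0 in WT. It did not pass (-1.57 ± 0.49, adjusted p = 0.0821, limma). Klf17, a Krüppel-like transcription factor 100875 bases from Ccdc24, had 25.7 and 44.2 normalized counts in Q344X and 0 and 0 in WT. It rose under limma (adjusted p = 0.00958), but it passed the filter on the mean through its Q344X values alone. Against a floor of 3 reads per WT library it was at least 11.4-fold higher, a bound that the p-value does not test.

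**Figure D3:**
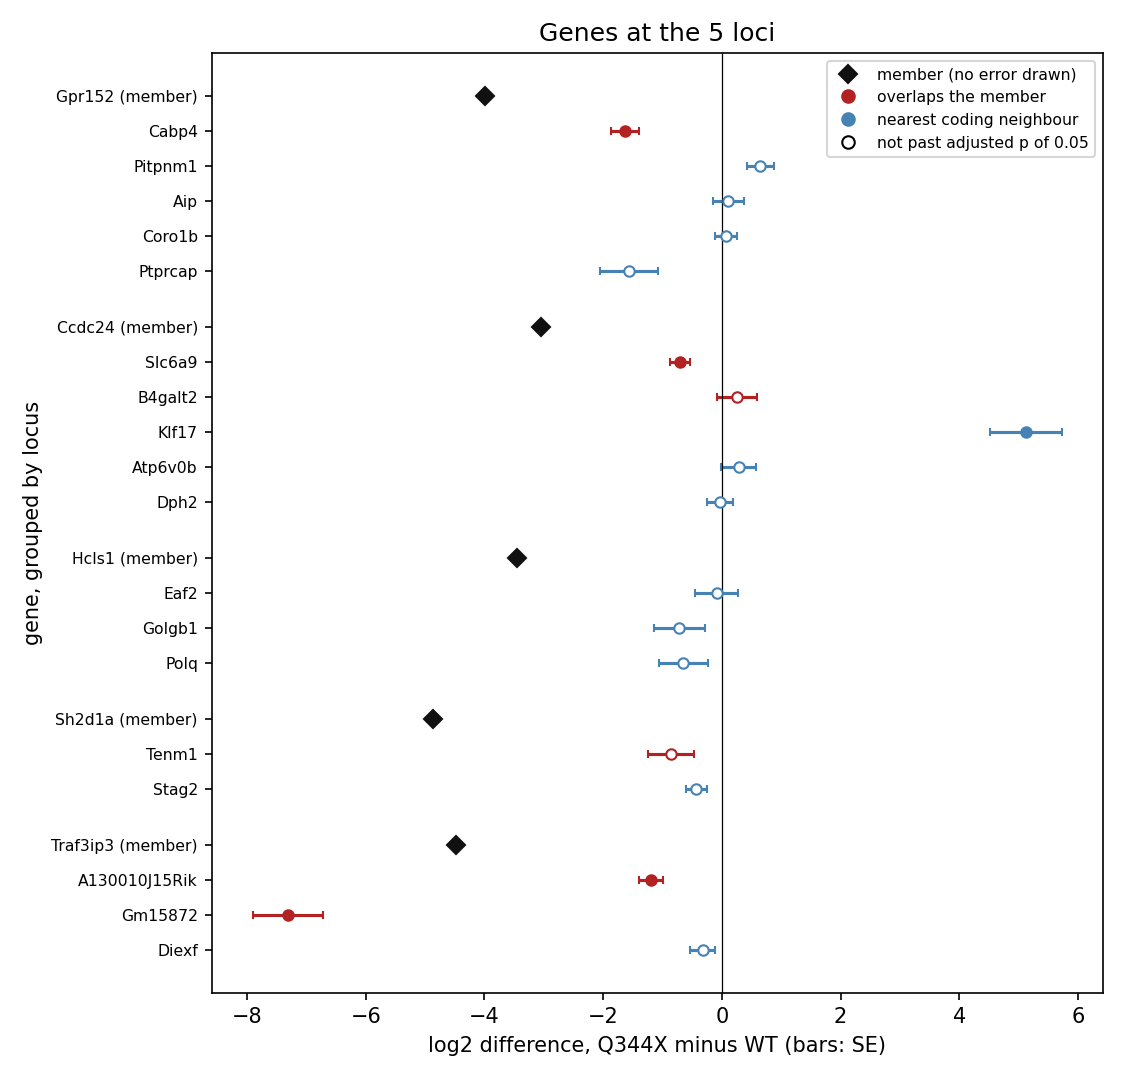
Log2 difference, Q344X minus WT, of each member (black diamonds), the tested genes that overlap it (red) and its nearest coding neighbours (blue; 1 tested neighbour is not drawn), with bars for the SE from limma; filled circles passed an adjusted p of 0.05. Cabp4, Slc6a9, A130010J15Rik and Gm15872 lie to the left of 0 and passed, and among the neighbours only Klf17, to the right, did; the plotted values of Gm15872 and Klf17 depend on the pseudocount.

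Levels of leukocyte markers in the same libraries varied from marker to marker. Of the T-cell receptor complex, Cd3e and Cd3g had at most 1 read in any library, with 0 and 0.960 normalized counts in Q344X and 0 and 0 in WT for each gene. Cd247, the zeta chain of that complex, had 23.8 and 22.1 in Q344X and 37.4 and 40.1 in WT (-0.73 ± 0.31, adjusted p = 0.160, limma). Ncr1, the defining receptor of NK cells, was at 0 in all 4 libraries, and Cd79a, of the B-cell receptor, had 0 and 0 in Q344X and 3.12 and 0 in WT. Ptprc, which encodes the pan-leukocyte antigen CD45, had 14.9 and 13.4 in Q344X and 25.0 and 19.0 in WT (-0.59 ± 0.39, adjusted p = 0.324). Per kb of exon Ptprc averaged 0.772 in Q344X and 1.20 in WT, whereas Hcls1 averaged 49.9 in Q344X and 555 in WT. That scaling uses all annotated exon bases, 18313 for Ptprc and 2525 for Hcls1, so it lowers Ptprc more. Without it, the WT means were 22.0 for Ptprc and 1401 for Hcls1. All 61 genes of the T, B, NK and pan-leukocyte lists together came to 366 and 385 per kb in Q344X and to 248 and 279 in WT; in WT Hcls1 was above that sum, and Traf3ip3 and Sh2d1a were below it. The T, B and NK lists alone came to 158 and 119.7 per kb in Q344X and to 86.7 and 98.2 in WT, and the 17 microglia markers to 1155 and 1491 in Q344X and to 1172 and 1045 in WT. The part of leukocyte RNA in the members' levels was not tested.

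Of the 61 leukocyte genes, 37 had a mean under 10 and 24 were tested; 1 fell and 4 rose (4.17% lower and 16.7% higher, against 9.10% and 5.46% of all tested genes), with a median of 0.29. Zap70, a T-cell kinase, was the one that fell, with 32.7 and 17.3 in Q344X and 67.6 and 83.2 in WT (-1.62 ± 0.39, adjusted p = 0.0463, limma); no leukocyte marker was called lower without WT replicate 2, with no filter, a minimum mean of 50 or quantile normalization. Cd8a (3.02), Rac2 (2.86), Tcf7 (1.28) and Coro1a (1.26) rose. Rac2, counted among these 4, had 44.6 and 42.2 in Q344X and 5.20 and 5.01 in WT. It passed the filter on the mean through its Q344X values alone. Of 17 microglia markers, all tested, 0 fell and 0 rose (limma; 0 lower and 2 higher at an unadjusted p under 0.05), and Cx3cr1, a chemokine receptor of microglia, had 109 and 123 in Q344X and 97.8 and 96.3 in WT. The 10 NK markers all had a mean under 10 and none was tested.

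The 8 red-cell and platelet markers summed to 127 and 271 normalized counts in Q344X and to 498 and 523 in WT. Of 5 tested, Hbb-bt (-2.82 ± 0.52) and Hba-a1 (-1.72 ± 0.33) fell, 0 rose and 3 did not pass. That is 40.0% lower, against 9.10% of all tested genes. All 5 were lower at an unadjusted p under 0.05 (limma), with a median log2 difference of -1.69. Globins exist in nearly identical copies, which makes their single values uncertain. The part of blood RNA in the members' difference was not tested. The pan-leukocyte markers summed to 707 and 829 in Q344X and to 539 and 541 in WT.

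**Figure D4:**
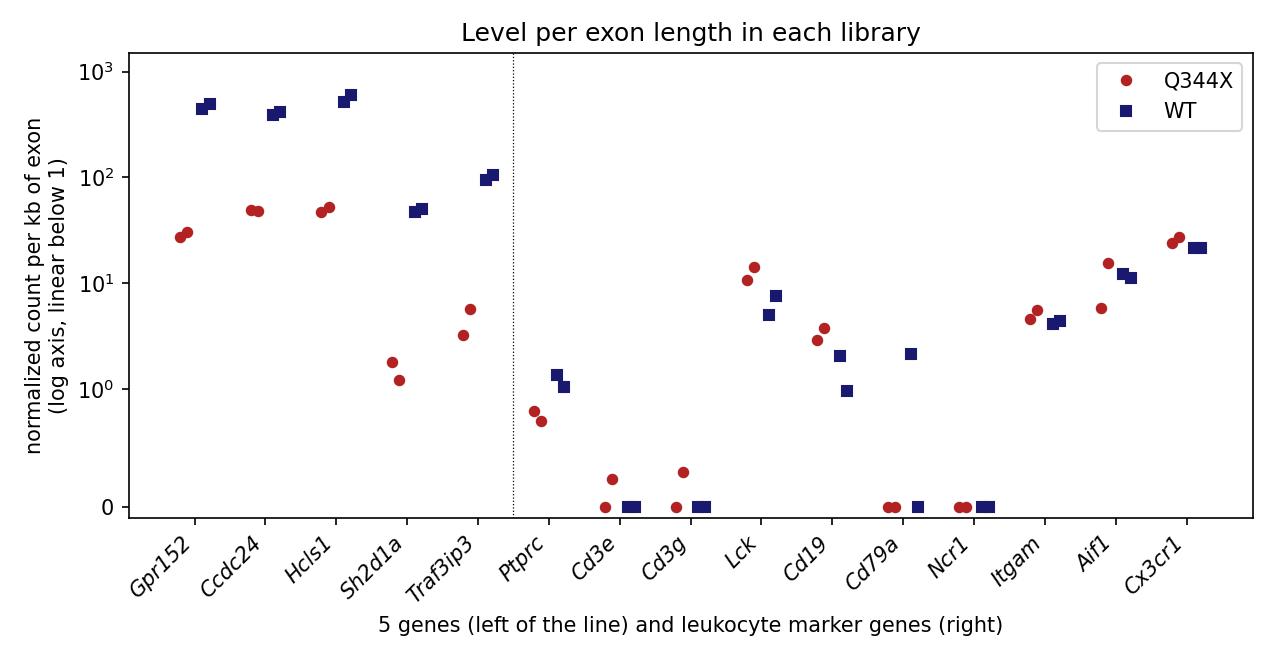
Normalized counts per kb of annotated exon (log axis, linear below 1) for the 5 members, left of the dotted line, and for 10 leukocyte marker genes, right of it, in each Q344X library (circles) and WT library (squares). In Q344X Sh2d1a and Traf3ip3 lie below Cx3cr1, the highest marker shown, whereas in WT all 5 members lie above it.

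The partners of the 3 lymphoid-named proteins, taken from fixed lists, were mostly not called. The same held for all tested genes, of which 14.6% were called in either direction, so little is read from these counts. Of 17 SLAM receptors and SH2D1-type adaptors and effectors, 11 had a mean under 10; of the 6 tested, 0 fell and Fyn rose (limma; 0 lower at an unadjusted p under 0.05), with a median of 0.17. Fyn, the kinase that SAP recruits, had 1927 and 2089 normalized counts in Q344X and 795 and 950.5 in WT (1.21 ± 0.18, adjusted p = 0.0164, limma), a call lost without WT replicate 1 and with no filter. Slamf1, a receptor for SAP, had 0.990 and 1.92 in Q344X and 5.20 and 14.0 in WT, too low to test. The paralogous adaptors Sh2d1b1 and Sh2d1b2 had at most 3.12 and 0 in any library.

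Cttn, which encodes cortactin, the widely expressed relative of HS1, had 2348 and 2224 normalized counts in Q344X and 1902 and 1899 in WT (0.27, not past the threshold). Of 25 tested genes of the cortactin and Arp2/3 list, Wipf2, a WASP-interacting protein, fell (-1.05 ± 0.21, adjusted p = 0.0300), Arpc5, a subunit of the Arp2/3 complex, rose (1.26 ± 0.20, adjusted p = 0.0185), and 23 did not pass, with a median of 0.23. With no filter neither call was kept, and without WT replicate 2 that of Wipf2 was lost. Arpc5 had 1915 and 2497 in Q344X and 876 and 953 in WT. Of 21 tested TRAF3 and STRIPAK genes (STRIPAK is a phosphatase and kinase complex), 0 passed in either direction (limma; 3 lower and 4 higher at an unadjusted p under 0.05), with a median of 0.01. Slmap, a STRIPAK scaffold with a coiled coil and a membrane anchor, had 4656 and 4718 in Q344X and 5356 and 5479 in WT (-0.21 ± 0.16).

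For Gpr152 and Ccdc24, genes with the same stem in their symbol were taken, a grouping by name and not by function. Of 46 tested Gpr genes, 4 fell, 4 rose and 38 did not pass (8.70% lower, against 9.10% of all genes; median -0.21). Gpr21 (2.13 ± 0.33) was among those that rose, and Gpr89 (-1.53 ± 0.20) and Gpr3 (-1.47 ± 0.34) fell. Of 107 tested Ccdc genes, 20 fell, 6 rose and 81 did not pass (18.7% lower; median -0.13). The largest changes were those of Ccdc187 (3.34 ± 0.23), which rose, and Ccdc89 (-2.59 ± 0.28), Ccdc177 (-2.13 ± 0.31) and Ccdc87 (-2.05 ± 0.36), which fell. The 20 became 11 without WT replicate 1 and 12 without WT replicate 2, and 31 without Q344X replicate 1.

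The coding genes with the most similar profile were named from 12447 with a mean of at least 50, by the root mean square difference, over 4 libraries, of log2(value + 1) relative to the WT mean. This likeness rests on the contrast that chose the members, so the nearest genes are others much lower in Q344X. For Sh2d1a they were Ahrr (0.16), the aryl hydrocarbon receptor repressor, Slc26a4 (0.27), the anion exchanger pendrin, and Mef2c (0.29), a transcription factor. For Traf3ip3 they were Kcnj14 (0.14), an inward-rectifier potassium channel, AK157302 (0.17) and the histone gene Hist2h3c2 (0.18). For Hcls1 they were Hist1h4i (0.13), a histone gene, Marveld3 (0.15), a tight-junction protein, and Cacna1s (0.22), a calcium channel subunit. For Gpr152 they were Tgm3 (0.20), a transglutaminase, Kctd21 (0.27) and Dok3 (0.28), a docking adaptor of immune-cell kinases. For Ccdc24 they were Rgs20 (0.10), a regulator of G protein signalling, Cacna1s (0.13) and Vtn (0.14), which encodes vitronectin. Dok3 had 10.9 and 13.4 normalized counts in Q344X and 197 and 147 in WT.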

How the data were processed

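Retinal poly-A RNA of 2 Q344X and 2 WT libraries was analysed. The deposited values are a signal per gene, gene counts divided by a size factor by the authors. The build mm10 and the tools DESeq2 1.16.1, featureCounts, STAR, Trim Galore 0.4.4 and FastQC are named, per the submitters' processing notes; annotation and strand setting are not stated. Dividing a library's values by its smallest step gave whole numbers (100% within 0.1), used as reads for intervals; no count model was fitted, since in 2 libraries this step is so close to 1 that recovered reads could not be checked.

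Symbols, positions and exon lengths are from GENCODE M21 (GRCm38); 52403 of 52636 genes were matched by Ensembl identifier, and 21820 were at 0 in every library. Genes with a mean of at least 10 were tested with limma 3.58.1 in R 4.3.3 on log2(value + 1), with trended variances (residual degrees of freedom 2, prior 3.90), p-values adjusted by Benjamini-Hochberg over 16833 genes and a threshold of 0.05, two-sided. Fold changes on this scale understate low genes. Intervals cover counting error only. The script was tested on simulated data. The members, lists and rules for named genes (members, 2 nearest coding genes on each side, overlapping genes, up to 4 genes per list, 3 most similar genes) were chosen with earlier results of these data known. Genes named beyond these rules, such as Slamf1, Cttn, Sh2d1b1 and Sh2d1b2, were chosen after their values were seen. As alternatives, the pseudocount was set to 0.5 or 5, the filter dropped or raised to a mean of 50, values rescaled to the 75th percentile or quantile normalized, and each library left out. Markers of retinal cell types are given mainly as counts, and some genes that the rules pick are not reported here.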

Additional observations from a re-analysis of the deposited data

How the results depend on the processing

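The log2 differences of the 5 members kept their sign in all 10 alternatives; leaving out 1 library gave -4.07 to -3.90 for Gpr152, -3.08 to -2.99 for Ccdc24, -3.57 to -3.35 for Hcls1, -5.11 to -4.62 for Sh2d1a and -4.86 to -4.10 for Traf3ip3, and a pseudocount of 5 gave -4.36 for Sh2d1a, which follows from its low Q344X counts. With every gene above 0 tested, 383 genes were lower and 153 higher, and the cause was not tested; 0 of the coding neighbours and overlapping genes were then lower, Cabp4 included (adjusted p = 0.0544, against 1.1e-05 to 0.0544 over its alternatives). In that setting the SLAM list had 0 higher, the cortactin list 0 lower and 0 higher, the Gpr genes 1 lower and 1 higher, the Ccdc genes 3 lower and 1 higher and the leukocyte lists 0 lower and 2 higher. With a minimum mean of 50, 0 neighbours were higher, as Klf17 was not tested, and the leukocyte lists had 0 lower and 2 higher. Quantile normalization gave 1 lower Gpr gene, 0 lower leukocyte genes and 1 higher microglia gene. Leaving out 1 library gave 904 to 3045 lower and 555 to 2388 higher genes; 904 and 555 were without WT replicate 1, 1030 and 575 without WT replicate 2, and 3045 and 2388 without Q344X replicate 1. It gave 1 to 7 lower and 0 to 3 higher among the neighbours and overlapping coding genes, 0 to 2 higher SLAM genes, 0 to 2 lower and 1 to 4 higher cortactin and Arp2/3 genes, 0 to 4 lower and 0 to 3 higher TRAF3 and STRIPAK genes, 1 to 11 lower and 2 to 10 higher Gpr genes, 11 to 31 lower and 3 to 13 higher Ccdc genes, 0 to 2 lower leukocyte genes and 0 to 1 higher microglia genes, with the highest counts mostly without Q344X replicate 1. The cause of the shifts with single libraries was not tested. With 10 and 7 reads in Q344X, depth limits the fold of Sh2d1a. No paired analysis was possible because the labels give no replicate numbers. Replicates 1 and 2 were numbered here within each group, so a shared number does not mark a pair.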
